A study of Mus musculus with 13 samples.

Results

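B1 is a short interspersed element (SINE) of the mouse genome, and the small RNAs described here are those matching its 3 sequences, B1_Mm, B1_Mus1 and B1_Mus2. They are 3 of the 262 retrotransposon sequences in the summary tables, taken by name, with earlier results of these data known. All 3 passed the minimum of 1 RPM (RPM is the number of reads scaled to the size of the library) in every comparison tested. The libraries came from small RNAs of spermatogenic cells sorted by FACS after DNA staining with Hoechst-33342, from C57BL6/J mice aged 3 to 4 weeks. The single-library set, read on 50-bp runs, held spermatogonia (SG, 1 sample), leptotene/zygotene spermatocytes (LZ, 2 samples), pachytene/diplotene spermatocytes (PD, 1 sample) and round spermatids (RS, 1 sample). The technical-replicate set held 2 biological samples each of spermatogonia (SG_T) and leptotene/zygotene spermatocytes (LZ_T), each read once on a 50-bp and once on a 100-bp run and averaged here. The sample labels give no genotype for any group, but header cells in the tables of the technical-replicate set name a Pld6 knockout, whereas those of the single-library set do not. A difference between the sets therefore cannot be told apart from genotype, sequencing run and depth, while read length can, since both sets have 50-bp runs. How many mice gave each sample is not stated, and small RNA libraries carry no mRNA markers with which to check the sorted stage.

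B1 elements descend from 7SL RNA, the RNA of the signal recognition particle, and are transcribed by RNA polymerase III. They are spread by the enzymes of L1 elements and lie in large numbers in introns and untranslated regions of genes, in both directions. In male germ cells, retrotransposons are restrained by piRNAs, which are small RNAs bound by PIWI proteins. Many piRNAs begin with U, and cleavage by a PIWI protein leaves a partner on the other strand that overlaps the first by 10 nt, the pattern called ping-pong. Shorter RNAs cut from double-stranded RNA by Dicer form another class, whose strands pair with short overhangs at their 3′ ends. Pld6, also called MitoPLD or Zucchini, is a protein of the mitochondrial surface that is needed for the making of piRNAs.

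The starts and overlaps of B1 matches were examined in 2 windows, of 21 to 23 nt and of 24 to 33 nt, which leave out other lengths. A few sequences carried the patterns described below. They are shown because the pair of strands that overlapped most often lay 1 nt apart in the 2 sets. Positions are those of the 5′ end on a B1-like sequence of 132 nt rebuilt from mouse transcripts, counted on the sense strand. Each sequence is a deposited read given 5′ to 3′ as DNA letters. In the first pair, at 22 nt, capitals mark the 20 bases in which the strands overlap. In the next 2 pairs, of 24 to 33 nt, capitals mark the 10 bases of overlap.
sense 60: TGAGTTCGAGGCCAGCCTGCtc
antisense 79: GCAGGCTGGCCTCGAACTCAgt
sense 82: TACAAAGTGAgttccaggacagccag
antisense 91: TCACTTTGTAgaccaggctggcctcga
sense 83: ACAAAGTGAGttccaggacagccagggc
antisense 92: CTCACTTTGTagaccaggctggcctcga

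The read at sense 60 equals the listed mature mmu-miR-1195 without its last base. RefSeq (GRCm38.p6) places that miRNA on the minus strand at chr17:70860558-70860580, and its seed, bases 2 to 8, is in capitals. Whole listed miRNA sequences made up 0.169% of the matched B1 reads.
mmu-miR-1195: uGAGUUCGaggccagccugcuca

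The 9 biological samples held 1810805 to 29956080 reads, and SG_T replicate 2 was the shallowest. In RPM of 24 to 33 nt, B1 values rested on 2679 reads in RS, 3252 reads in SG_T replicate 2 and up to 196200 reads in LZ_T replicate 2. Intervals below cover counting error only. The share of 24–33 nt reads among all reads was 84.5% in PD and 83.1% in RS, against 14.8% to 45.2% in the other samples. All limma p-values below measure the spread between these samples, which may be technical. The 3 B1 sequences were given divided shares of the same reads, so they are not 3 independent measurements.

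**Figure D1:**
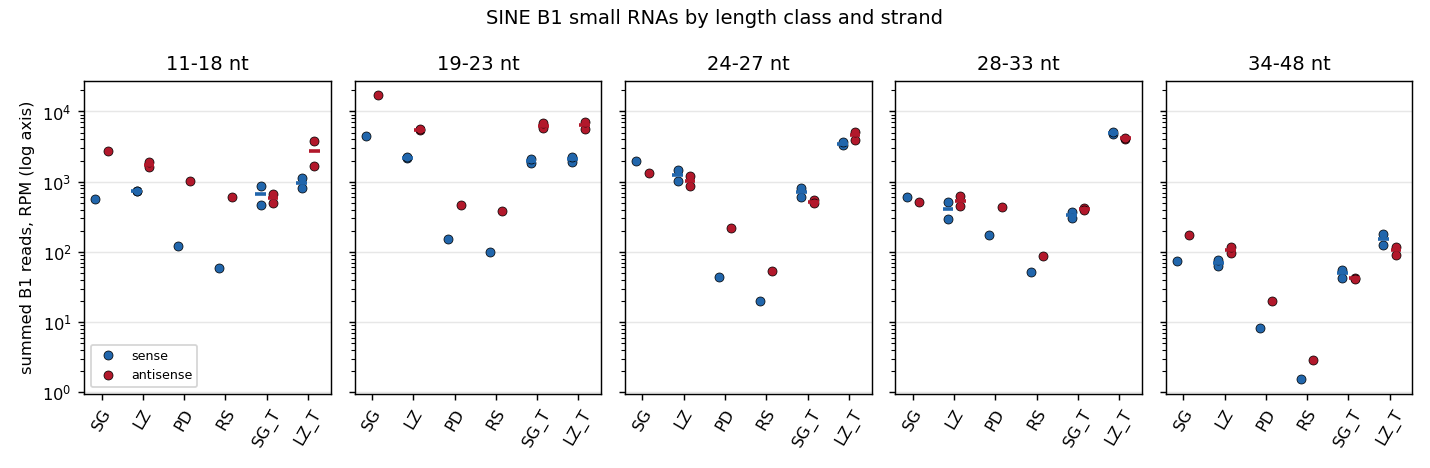
RPM of the 3 B1 sequences summed (log axis) in 5 length classes, with sense reads in blue, antisense reads in red, 1 point a biological sample and a bar at the mean of groups of 2. In the 28–33 nt class both strands of the 2 LZ_T samples lie between 4083 and 5177 RPM, above all other samples, whereas in the 19–23 nt class SG has the highest value on each strand.

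The LZ_T samples had higher B1 levels in RPM at 24–27 and 28–33 nt than every other sample. Summed over the 3 sequences and both strands, 28–33 nt B1 reads were at 8824 and 9361 RPM in LZ_T. They were at 738 and 1138 RPM in LZ, at 799 and 695 RPM in SG_T, and at 1119 RPM in SG. PD had 599.9 RPM and RS 140.3 RPM of them. Thus the lowest LZ_T sample lay above the highest of the other 7 samples. In the 24–27 nt class LZ_T was at 7265 and 8862 RPM, LZ at 1869 and 2676 RPM, SG_T at 1357 and 1101 RPM, SG at 3322 RPM, PD at 260.9 RPM and RS at 73.3 RPM, so that LZ_T was again apart from all others.

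The most frequent sense length also differed between LZ_T and LZ. Among reads matched to the B1-like sequence, sense reads of 28 nt reached 2829 and 2505 RPM in LZ_T, above any other sense length from 19 to 33 nt in those samples. In LZ, sense reads were most frequent at 22 nt, with 746 and 888 RPM, and 28-nt reads had 73.8 and 157 RPM. Antisense reads of LZ_T peaked at 22 nt, with 4639 and 5224 RPM, and had a second maximum at 27 nt, with 2504 and 2571 RPM. Within 24–33 nt, reads of PD and RS were most frequent at 29 nt on both strands, longer than in LZ_T. Over 19–33 nt, reads of PD and RS were most frequent at 19 nt on both strands. Antisense reads of 19 nt were at 457 RPM in PD and 374 RPM in RS, against 46.05 and 18.02 RPM at 22 nt. As a share of all B1 RPM between 11 and 48 nt, the 28–33 nt class held 31.0% ± 3.25 (SD, n = 2) in LZ_T, 6.85% ± 1.42 in LZ and 6.504% ± 1.22 in SG_T. PD had 22.8%, RS 10.3% and SG 3.80% in that class. The 19–23 nt class, in contrast, held 28.7% ± 0.161 in LZ_T, 56.9% ± 3.89 in LZ and 71.3% ± 1.23 in SG_T. There PD had 23.2%, RS 35.0% and SG 73.0%. For both classes LZ_T did not overlap with LZ or SG_T, and the two-sided exact permutation p was 0.333, the smallest that 2 against 2 samples can give.

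Compared with LZ, all 3 B1 sequences were higher in LZ_T in 24–33 nt reads, while most of the listed retrotransposons were lower. B1_Mm, the most abundant of the 3, was at 1130 and 1719 RPM in LZ and at 7352 and 8368 RPM in LZ_T. B1_Mus1 was at 757 and 1077 RPM in LZ and at 4521 and 5039 RPM in LZ_T, and B1_Mus2 at 720.4 and 1017 RPM and at 4216 and 4816 RPM. Both LZ_T samples lay above both LZ samples for each of the 3, as for 2.94% of all sequences tested. On the log2(RPM + 1) scale the differences were 2.49 for B1_Mm, 2.40 for B1_Mus1 and 2.39 for B1_Mus2 (SE 0.445, limma adjusted p = 8.30e-08 to 2.43e-07). Of the 136 sequences tested, 2.21% were called higher, and the 3 called were the B1 sequences. A further 91.9% were called lower, and the median over all 136 was −2.87. The SE was the same for the 3 sequences because limma shared the spread over all sequences tested, so the small p-values rest on that pooled spread.

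Within 24 to 33 nt the difference was larger in the longer class, and it was present on both strands. In 24–27 nt reads the 3 B1 sequences were higher in LZ_T than in LZ by 1.76 to 1.93 (log2, SE 0.436, limma adjusted p = 2.07e-05 to 8.63e-05), in a comparison in which 2.40% of sequences were called higher and 94.4% lower. In 28–33 nt reads the differences were 3.28 to 3.33 (SE 0.486, limma adjusted p = 2.11e-10 to 3.42e-10), where 3.96% of the 101 sequences were called higher and 90.1% lower. Those were 4 sequences, the 3 B1 sequences and B2_Mm2. By strand, B1_Mm in 24–33 nt reads differed by 2.32 in sense and 2.65 in antisense reads, and B1_Mus2 by 2.46 in sense and 2.32 in antisense reads (limma adjusted p = 0.000101 to 0.000337 for these 4 values). All 3 sequences were called on each strand, where 3.85% of sequences in sense and 4.76% in antisense reads were called higher. The 5 called in antisense reads were the 3 B1 sequences, B2_Mm1a and B2_Mm1t. The 100-bp run of each sample in the technical-replicate set had 1.25 to 1.87 times the 24–33 nt B1 RPM of its 50-bp run. The level was nevertheless higher in each LZ_T library by itself, with 11969 and 16223 RPM on the 50-bp run and 20209 and 20223 RPM on the 100-bp run. All 3 sequences were called higher with either run alone, for which the share of all sequences called is not given. With 50-bp runs in both groups the differences were 2.08 to 2.21 (log2, limma adjusted p = 0.000547 to 0.000801).

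**Figure D2:**
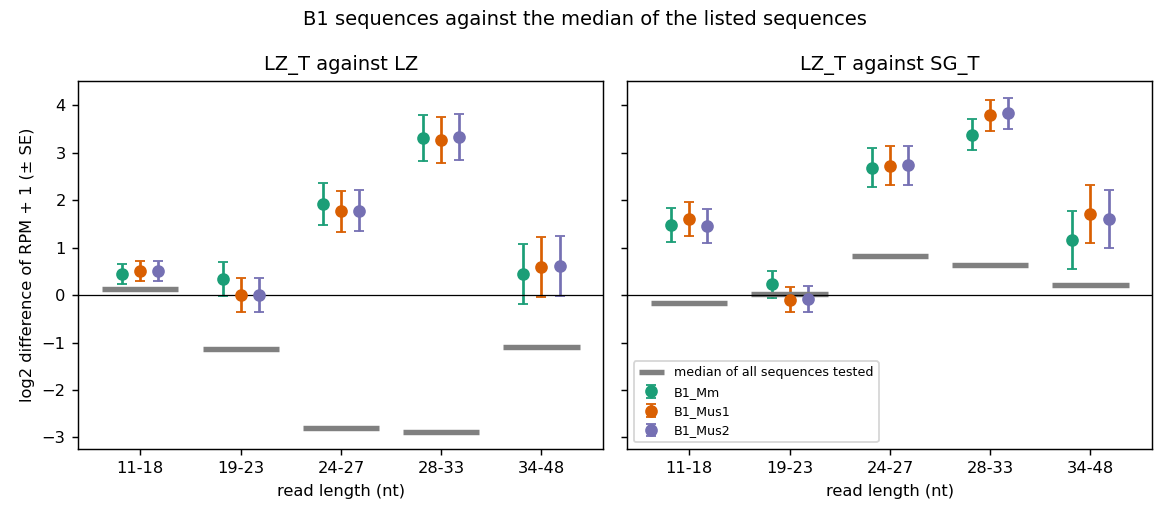
Log2 difference of RPM + 1 (points, with the SE from limma) of the 3 B1 sequences in each length class, for LZ_T against LZ (left) and LZ_T against SG_T (right), with the median of all sequences tested in grey. In the left panel the B1 sequences lie above 0 at 24–27 and 28–33 nt, where the medians are −2.80 and −2.89, and near 0 at 19–23 nt.

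The shorter B1 RNAs did not differ in this way between LZ_T and LZ. In 19–23 nt reads the summed B1 level was 7534 and 7849 RPM in LZ and 7627 and 9312 RPM in LZ_T, so that the groups overlapped. Differences of the 3 sequences ran from 0.00 to 0.34 (log2, SE 0.359). None of the 3 was called by limma at an adjusted p of 0.05 and 0 had an unadjusted p under that threshold, whereas 62.1% of the 132 sequences tested were called lower and 2.27% higher. In 11–18 nt reads the differences were 0.44 to 0.51 (limma adjusted p = 0.0843 to 0.151). None of the 3 was called there, although 3 had an unadjusted p under 0.05, and 10.7% of all sequences were called higher and 7.25% lower. In 34–48 nt reads the differences were 0.44 to 0.62 (limma adjusted p = 0.445 to 0.559), with 0 of the 3 called, 0 at an unadjusted p under 0.05, and 2.22% of sequences called higher and 28.9% lower.

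The change from spermatogonia to leptotene/zygotene spermatocytes also depended on read length within the technical-replicate set. In 19–23 nt reads B1 stood at 7645 and 8886 RPM in SG_T, within the range of the 2 LZ_T samples, and the 3 sequences differed by −0.09 to 0.23 (log2), with 0 called by limma, 0 at an unadjusted p under 0.05 and 7.96% of all sequences called higher. In 24–27 nt reads B1 was higher in LZ_T by 2.69 to 2.74 and in 28–33 nt reads by 3.39 to 3.83, with all 3 called in both classes. These classes had 46.7% and 46.3% of sequences called higher, so a call was frequent there and the count of B1 sequences is to be read against that share. In the 24–33 nt class as a whole 43.1% of 58 sequences were called higher, and in 55.2% both LZ_T samples lay above both SG_T samples, with a median of 0.80 against 3.01 to 3.22 for the B1 sequences (limma adjusted p = 2.16e-05 to 3.03e-05). When RPM was rescaled to the total of the listed retrotransposons, of which B1 makes up most in this set, the B1 differences were 0.20 to 0.40 and none was called (limma adjusted p = 0.260 to 0.566).

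In the shortest class, 11–18 nt, B1 was at 953.2 and 1545 RPM in SG_T and at 2474 and 4852 RPM in LZ_T. All 262 listed sequences passed the minimum of 1 RPM in this class, against 29 to 113 in the other classes of this comparison. How specifically reads this short match B1 was not tested. The 3 B1 sequences were higher in LZ_T by 1.45 to 1.60 and were the only 3 called of 262 tested (1.15%, limma adjusted p = 0.0025 to 0.0049). These calls were lost when any 1 of the 4 samples was left out. Most of the difference lay in antisense reads, which were at 493 and 668 RPM in SG_T and at 1657 and 3737 RPM in LZ_T, while sense reads overlapped between the groups. In 34–48 nt reads, of which SG_T replicate 2 had 150.5 B1 reads, 2 of the 3 sequences were called higher (1.17 to 1.71, against 24.1% of all sequences), and this count was also 0 without any 1 sample.

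Spermatogonia of the single-library set held the most short B1 RNA. In 19–23 nt reads the SG library had 21461 RPM of B1, of which 17040 RPM was antisense, and B1 made up 6.76% of all its reads of that length. The share was 3.40% and 3.14% in LZ and 2.40% and 3.11% in SG_T. All 3 B1 sequences were lower in LZ than in SG by 1.47 to 1.49 (log2 differences of −1.47 to −1.49, SE 0.388 to 0.393, limma adjusted p = 0.0119 to 0.0133), and they were the 3 sequences called lower (2.11% of 142, with 15.5% called higher). Against SG, all 3 were also lower in SG_T (−1.36 to −1.39, limma adjusted p = 0.00804 to 0.00945), with 37.3% of all sequences called lower. SG is 1 library and was assumed to vary like the replicated groups.

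In 24–33 nt reads the LZ and SG levels of B1 did not differ beyond the spread, at −0.38 to −0.62 (limma adjusted p = 0.422 to 0.679, 0 of 3 called and 0 at an unadjusted p under 0.05, with 18.6% of sequences called higher). B1 in SG_T was lower than in SG by −1.14 to −1.22 (SE 0.397 to 0.414, limma adjusted p = 0.0157 to 0.0253), where 87.9% of sequences were called lower and the median difference was −2.86. Relative to the other listed retrotransposons this direction reversed. Rescaled to the listed LINE and LTR sequences, the B1 sequences were higher in SG_T by 3.58 to 3.67. The calls were also lost without SG_T replicate 2 and with the 100-bp runs alone. The change from spermatogonia to leptotene/zygotene spermatocytes differed between the sets for all 3 B1 sequences, by 3.59 to 3.63 (log2, limma interaction term, adjusted p = 0.00295), with 7.86% of 140 sequences called in that direction. The call was lost per total of the listed retrotransposons (0.58 to 0.63, limma adjusted p = 0.24 to 0.29) and per total of LINE and LTR sequences (1.32 to 1.36, limma adjusted p = 0.13 to 0.14).

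The weight of B1 among the retrotransposon-derived RNAs differed widely between the sets. Of the 24–33 nt RPM of all 262 sequences, B1 held 13.5% in SG, 11.8% and 10.1% in the LZ samples, 57.6% and 64.2% in SG_T, and 71.9% and 77.6% in LZ_T. As a percentage of all reads of 24–33 nt, whatever their source, B1 made up 1.49% in SG, 0.577% and 0.970% in LZ, 0.940% and 1.21% in SG_T, and 6.86% and 10.9% in LZ_T. By the first measure SG_T resembled LZ_T, and by the second it lay within the range of SG and LZ. PD had 5.64% and 0.102%, and RS 3.27% and 0.0257%, by the same measures.

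In PD, B1 reads of 19–23 nt were far below those of LZ. Those of 28–33 nt did not differ beyond the spread with both strands together, but did in sense reads. Matched reads of 19–23 nt were mostly of 19 nt in PD and RS, whereas in LZ they peaked at 22 nt. In 19–23 nt reads B1 fell from 7534 and 7849 RPM in LZ to 610.0 RPM in PD and was at 475.6 RPM in RS. The log2 differences of the 3 sequences between PD and LZ were −3.63 to −3.67 (SE 0.388 to 0.393, limma adjusted p = 2.19e-06), with 15.5% of sequences called lower. In 24–33 nt reads they were −2.12 for B1_Mm, −1.51 for B1_Mus1 and −1.92 for B1_Mus2 (limma adjusted p = 0.00445 to 0.0143, with 30.0% of sequences called lower). These latter calls were lost without either LZ_T replicate, which enter only through the shared spread, and when RPM was rescaled to reads of 21–23 nt or to LINE and LTR sequences. At 28–33 nt PD had 599.9 RPM against 738 and 1138 RPM in LZ, and none of the 3 was called (log2 differences of −0.16 to −0.997, limma adjusted p = 0.0742 to 0.708, 1 at an unadjusted p under 0.05, with 10.2% of sequences called lower). By strand, 2 of the 3 were called lower in 28–33 nt sense reads, where 30.0% of sequences were. The sense differences were −2.34 to −0.0267 (limma adjusted p = 0.00706 to 0.997). In antisense reads 0 were called, with 4.71% of sequences called lower. At 11–18 nt PD had 1130 RPM and all 3 were called lower (−1.08 to −1.20, limma adjusted p = 0.00506 to 0.0114), as were 68.7% of all sequences, while B1 made up 2.15% of PD reads of that length, against 0.333% to 1.31% in the other 8 samples. RS, with 1 library, had 0.228 to 0.265 times the 24–33 nt B1 level of PD, a ratio without a test, and 44.7% of the 85 sequences with at least 10 RPM in either library were over 2-fold lower in RS.

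The order of the 3 B1 sequences in 28–33 nt sense reads was different in PD and RS. Sense reads of 28–33 nt were at 101 RPM for B1_Mus1 in PD, at 54.0 RPM for B1_Mm and at 15.9 RPM for B1_Mus2. In RS the order was the same, with 31.5, 13.5 and 7.07 RPM. In the other 7 samples B1_Mm was the highest of the 3. The sequences also parted between SG_T and SG. Their 28–33 nt antisense differences ran from −1.02 to 0.15 (log2), with 2 of the 3 called lower and 83.5% of sequences called lower. Sense reads of 24–33 nt in PD differed from LZ by −4.14 (log2) for B1_Mus2 and by −2.001 for B1_Mus1, with all 3 called and 44.0% of sequences called lower. Antisense reads differed by −1.06 to −1.49, with 2 of the 3 called and 17.9% of sequences called lower.

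Which strand prevailed also depended on length. In 19–23 nt reads the antisense strand held 71.3% to 79.4% of B1 RPM in all 9 samples, although in PD and RS most matched reads of this class were of 19 nt. In 24–27 nt reads it held 54.9% and 58.1% in LZ_T, 46.2% and 45.3% in LZ, 40.1% and 44.9% in SG_T and 40.1% in SG (95% Wilson interval 39.7 to 40.6). In 28–33 nt reads the order turned. LZ_T had 46.3% and 44.7%, below LZ with 60.5% and 54.3% and SG_T with 53.1% and 56.1%, but close to SG with 46.3% (45.5 to 47.1). PD was mainly antisense, with 83.2% (81.9 to 84.4) at 24–27 nt and 71.5% (70.5 to 72.5) at 28–33 nt. LZ_T did not overlap with LZ or SG_T in these 2 classes, with a two-sided exact permutation p of 0.333, the smallest possible.

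Reads matched to the B1-like sequence, an analysis chosen after the tables had been examined, resolved where these RNAs began. The matched reads gave 0.734 to 1.23 times the tabulated B1 RPM of 24–33 nt for each strand and sample, and up to 2.38 times that of 19–23 nt. In LZ_T and SG_T, 24–33 nt sense reads began most often at position 83, which held 47.3% and 42.8% of them in LZ_T and 35.0% and 33.3% in SG_T. The same position held 0.525% to 4.35% in the 5 samples of the single-library set. There the neighbouring position 82 was more frequent than 83, with 35.2% in SG, 21.8% and 30.4% for the LZ replicates, 21.8% in PD and 33.7% in RS, against 8.84% to 11.5% in SG_T and LZ_T. Position 82 was the leading sense start in SG and LZ replicate 2. In LZ replicate 1 position 56 led with 23.1%, and in PD and RS position 20 led with 57.2% and 41.5%, against 1.45% to 8.39% elsewhere. In RPM, position 82 was not lower in LZ_T, with 1005 and 955 RPM, than in SG with 825 RPM or LZ with 248 and 549.9 RPM. Position 20 was likewise higher in LZ_T by RPM, with 743 and 572 RPM, than in PD with 90.1 RPM or RS with 26.55 RPM.

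On the antisense strand the neighbouring positions 91 and 92 differed in the same way. Position 92 held 27.8% and 35.5% of antisense 24–33 nt reads in SG_T and 23.8% and 19.6% in LZ_T, but 0.120% to 4.51% in the samples of the other set. Position 91 held 31.3% in SG, 21.4% and 26.1% for the LZ replicates, 11.7% for PD and 6.67% for RS, and 5.64% to 8.10% in SG_T and LZ_T. The antisense 28-nt read at 92 printed above was at 350 and 237 RPM in LZ_T, at 68.4 and 84.5 RPM in SG_T and at 5.95 RPM in SG, whereas the 27-nt read at 91 was at 154 and 129 RPM in LZ_T and at 107 RPM in SG. The high shares at 83 and 92 were present in each run: in the 8 libraries of the set, position 83 held 32.5% to 49.7% of sense reads and position 92 held 17.9% to 36.7% of antisense reads. By share LZ_T resembled SG_T at these positions, while by RPM it did not. Sense reads at 83 were at 4187 and 3776 RPM in LZ_T and at 465 and 266 RPM in SG_T.

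**Figure D3:**
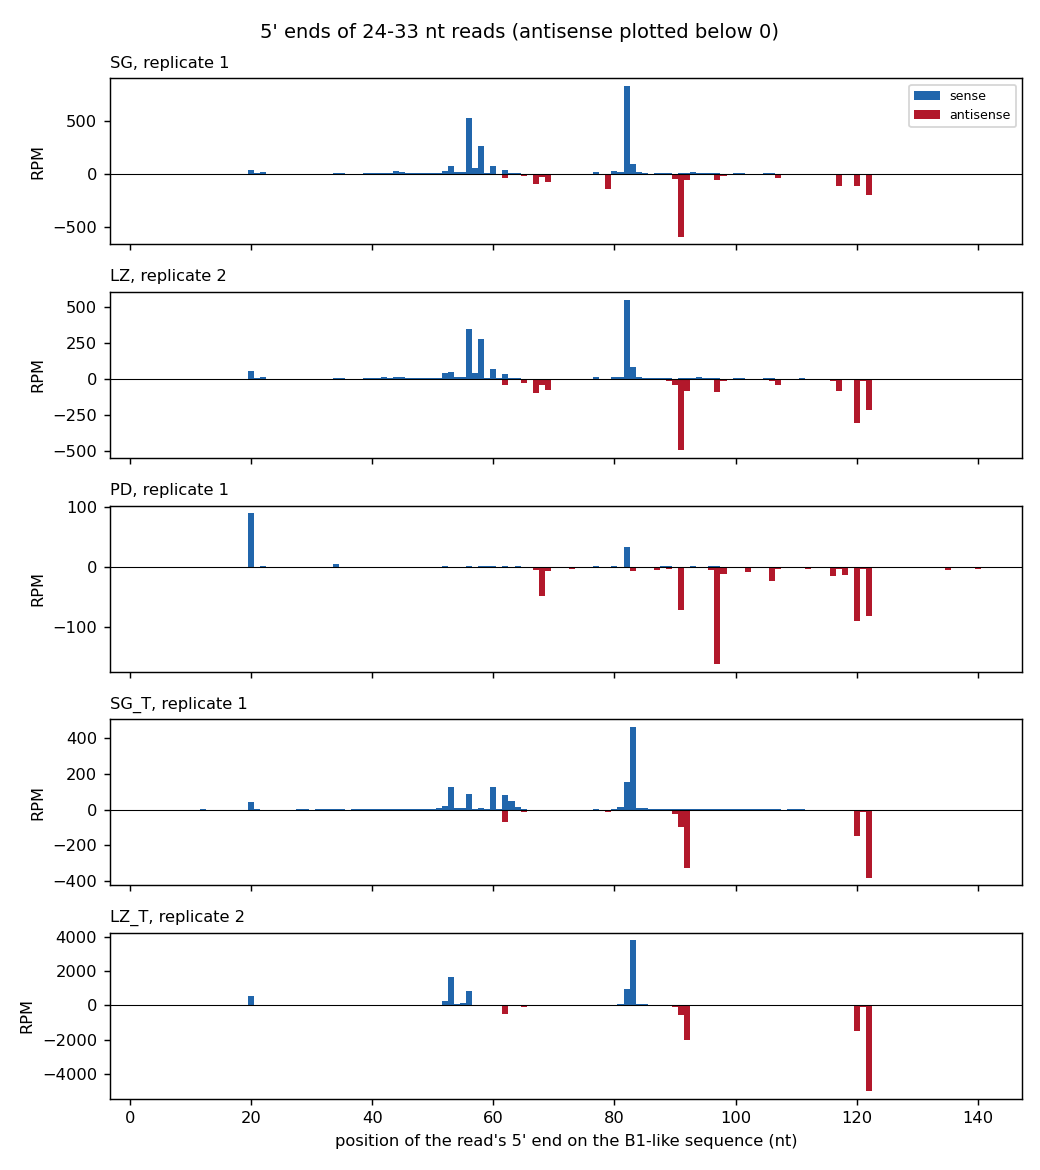
RPM of 24–33 nt reads whose 5′ end lies at each position of the B1-like sequence (nt), sense above 0 and antisense below 0, in 1 sample each of SG, LZ, PD, SG_T and LZ_T, each panel with its own RPM axis. In SG and LZ replicate 2 the highest sense bar is at position 82 and the highest antisense bar at 91, in SG_T and LZ_T sense reads are highest at 83, and antisense reads of SG_T replicate 1 and LZ_T replicate 2 are highest at 122.

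Other starts differed between the sets too. On the sense strand, position 58 held 11.2% in SG and 18.1% and 15.2% in LZ, but 0.459% to 0.622% in SG_T and LZ_T, while position 53 held 13.9% and 18.4% in LZ_T, 9.48% and 8.70% in SG_T and 1.86% to 3.07% in SG and LZ. The 26-nt sense read at position 53 was at 261 and 286 RPM in LZ_T and at 3.54 and 6.53 RPM in LZ. On the antisense strand, position 122 was the most frequent start in LZ_T, with 40.8% and 49.1%, and in SG_T replicate 1, with 32.2%. Reads at antisense 97 were at 58.1 RPM in SG, 135 and 91.02 RPM for LZ, 162 RPM for PD and 27.99 RPM for RS, and at 0.944 to 4.55 RPM in SG_T and LZ_T. This was a B1 start at which LZ_T lay below LZ. These reads are shown because they mark the starts at which the sets differed beside the pair at 82 to 92, with the first base in capitals.
sense 53: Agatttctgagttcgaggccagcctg
antisense 122: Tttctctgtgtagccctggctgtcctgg
antisense 97: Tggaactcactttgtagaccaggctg

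Antisense reads of 21–23 nt began most often at position 79 in SG, LZ and SG_T, but not in LZ_T. There they were at 8429 RPM in SG, 1824 and 1869 RPM in LZ, 2784 and 2824 RPM in SG_T and 1112 and 617 RPM in LZ_T. In LZ_T replicate 1 position 62 led with 20.8% and in replicate 2 position 120 led with 22.2%, against 13.7% and 6.33% at 79. Their sense partners at position 60 were at 1485 RPM in SG, 464 and 610.5 RPM in LZ, 1952 and 1437 RPM in SG_T and 879 and 866 RPM in LZ_T. Both were nearly absent from the later stages, with 2.78 and 4.59 RPM in PD.

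The first base changed with the start. U began 78.6% of sense 24–33 nt B1 reads in SG, 72.8% and 76.2% for the LZ replicates, 89.4% for PD and 84.9% for RS, but 26.2% and 21.5% in SG_T and 28.1% and 29.3% in LZ_T. On the antisense strand the share was 60.97% in SG, 65.7% and 67.8% in LZ, 62.2% and 54.4% in SG_T and 70.9% and 75.5% in LZ_T, so there the sets overlapped. The lower share of U was not limited to B1. Among all reads of 24–33 nt, U began 65.8% in SG, 74.8% and 72.1% in LZ, 31.5% and 32.1% in SG_T and 36.1% and 42.3% in LZ_T. In PD and RS, where B1 sense reads were few, 89.0% and 87.3% of them carried A at base 10, against 29% to 44% in the other samples. This base faces the first U of a ping-pong partner. On the antisense strand PD and RS, with 43.67% and 39.22%, lay below SG with 53.97% and LZ with at least 52.02%. SG_T and LZ_T had 32.82% to 41.31% there. Sense position 82, whose 26-nt read printed above has A at base 10, held 21.8% and 33.7% of sense reads in PD and RS. Whether the high sense share of PD and RS marks ping-pong was not tested. The leading sense start in PD and RS was position 20. The 29-nt read shown here from that start has U (printed T) first and A at base 10, both in capitals. It was at 22.2 RPM in PD and 7.66 RPM in RS.
sense 20: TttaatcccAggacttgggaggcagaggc

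**Figure D4:**
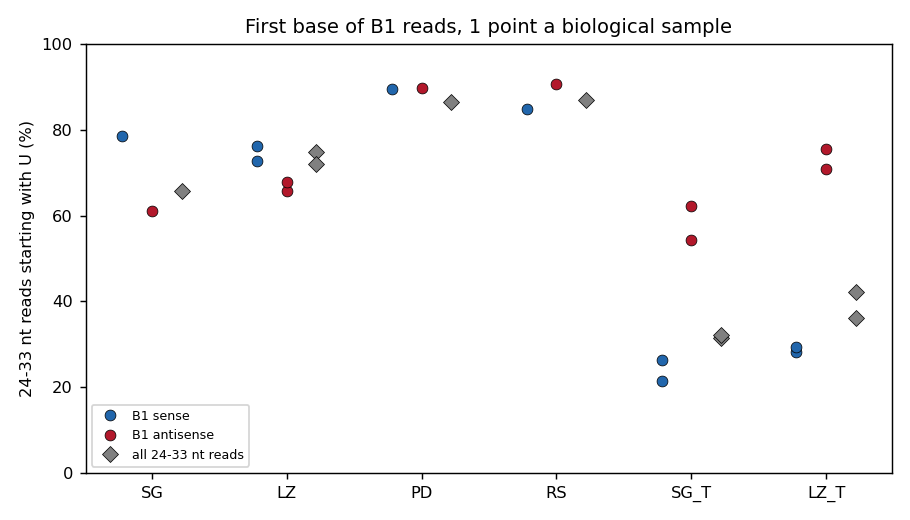
Percentage of 24–33 nt reads that begin with U, with 1 point a biological sample, for B1 sense reads (blue), B1 antisense reads (red) and all reads of that length (grey). B1 sense reads lie between 72.8% and 89.4% in SG, LZ, PD and RS and between 21.5% and 29.3% in SG_T and LZ_T.

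Sense and antisense B1 reads of 24–33 nt overlapped by 10 nt more often than by any other length in SG, LZ, SG_T and LZ_T. This overlap took 39.0% of read pairs in SG, 24.2% and 36.4% in LZ, 45.0% and 47.6% in SG_T and 56.2% and 55.3% in LZ_T, where an even spread over the 24 overlaps counted would give 4.17%. In PD and RS a 16-nt overlap was the most frequent, with 39.5% and 41.6%, and the 10-nt overlap had 20.5% and 17.4%. In every sample a single pair of starts carried most of the 10-nt pairs (73.1% to 90.6%). That pair was 82 with 91 in SG, LZ, PD and RS, and 83 with 92 in SG_T and LZ_T. Without it the 10-nt overlap held 5.69% in SG, 7.89% and 8.79% for the LZ replicates, 3.77% for PD, 5.19% for RS, 10.7% and 8.49% in SG_T, and 17.2% and 16.7% in LZ_T. The LZ_T samples thus had the highest share of 10-nt pairs with the leading pair and without it. Without that pair, however, 10 nt was not the most frequent overlap in any sample. In LZ_T, 9-nt overlaps held 15.14% and 15.55% of all pairs, and 11-nt overlaps 13.04% and 13.55%. These are shares of all pairs, a larger base than that of the 17.2% and 16.7%.

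Reads of 21–23 nt overlapped most often by 20 nt, as in the first pair printed above, in SG, LZ and SG_T, but not in LZ_T, PD and RS. That overlap held 39.8% of pairs in SG, 30.1% and 31.4% in LZ and 50.6% and 47.7% in SG_T, against 4.76% for an even spread over 21 overlaps. LZ_T had 20.2% and 13.1%, and a 3-nt overlap was more frequent there, with 27.8% and 27.4%. The pair of starts at 60 and 79 made up 77.4% to 94.6% of the 20-nt pairs in those 7 samples, and without it the share was 2.87% to 5.39%. In PD and RS the 20-nt overlap had 4.63% and 3.73%, and a 10-nt overlap was the most frequent, with 31.2% and 28.3%. These pairs are counted over positions of 1 rebuilt sequence, and reads from different B1 copies cannot be told apart in them.

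**Figure D5:**
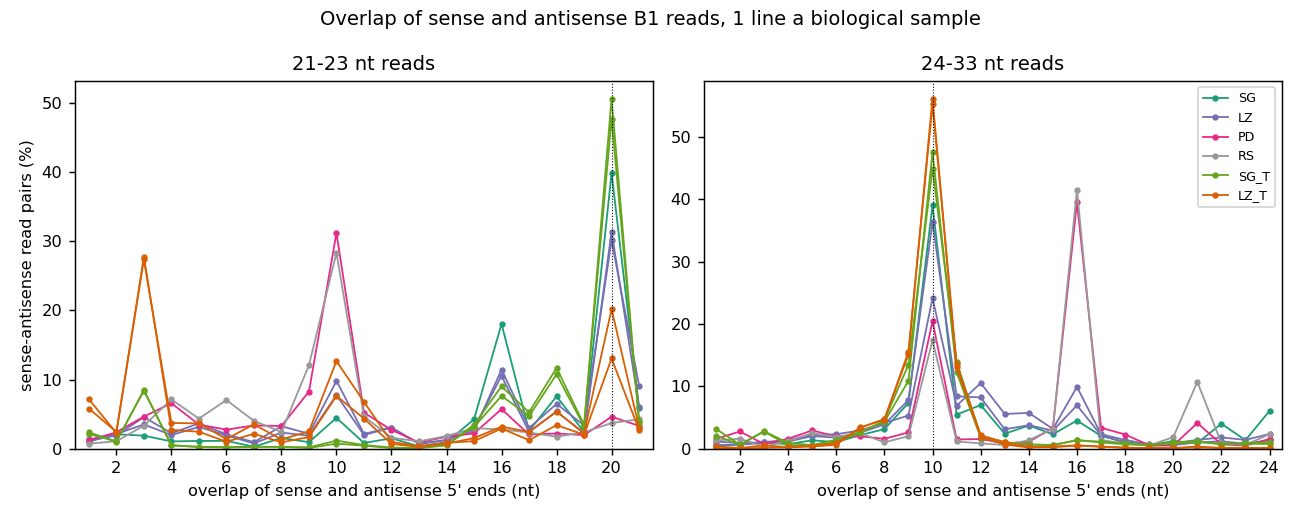
Percentage of sense-antisense B1 read pairs at each overlap of their 5′ ends (nt), with 1 line a biological sample, for reads of 21–23 nt (left, dotted line at 20 nt) and 24–33 nt (right, dotted line at 10 nt). On the right the LZ_T lines peak at 10 nt with 56.2% and 55.3%. On the left SG_T peaks at 20 nt with 50.6% and 47.7%, and LZ_T at 3 nt.

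The other SINE sequences in the tables, the 3 B2 sequences, which derive from a tRNA, shared part of this pattern. Summed, B2 of 24–33 nt was at 1961 and 2270 RPM in LZ and at 1629 and 1800 RPM in LZ_T. B2_Mm1a, B2_Mm1t and B2_Mm2 differed between LZ_T and LZ by −0.73, −0.85 and 0.56 (log2, limma adjusted p = 0.0614 to 0.216), and none was called. By strand, B2_Mm1a and B2_Mm1t were higher in LZ_T in antisense reads, by 1.02 and 0.90 (limma adjusted p = 0.0234 and 0.0337), and lower in sense reads, at −1.20 and −1.35 (limma adjusted p = 0.0178 and 0.00921), where 82.7% of sequences were called lower. B2_Mm2 was called higher in 28–33 nt reads, by 1.26 (limma adjusted p = 0.0115). Between LZ_T and SG_T all 3 were called higher, by 1.91, 2.01 and 2.53 (limma adjusted p = 0.000174 to 0.000507), in the comparison in which 43.1% of sequences were called higher. The difference between B1 and B2 was not itself tested.

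The listed sequences whose 24–33 nt levels were most like those of summed B1 across the 9 samples were B2_Mm2 (Pearson r = 0.88 on the log2(RPM + 1) scale), B2_Mm1a (0.73), IAPLTR1_Mm (0.72), B2_Mm1t (0.68) and IAPLTR1a_Mm (0.60), among 69 candidates with a mean of at least 10 RPM. The points share libraries and depth, so this is a description. IAPLTR1_Mm and IAPLTR1a_Mm are long terminal repeats of intracisternal A particles, an endogenous retrovirus. B2_Mm2, the most alike, was at 475.4 and 623 RPM in LZ, 769 and 835 RPM in LZ_T, 178 and 107 RPM in SG_T, 723 RPM in SG, 211 RPM in PD and 50.8 RPM in RS.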

How the data were processed

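Small RNA libraries were prepared and sequenced by the authors, who discarded reads that matched abundant noncoding RNAs or miRNAs, compared the rest to retrotransposon consensus sequences with up to 2 mismatches, divided reads with several matches and deposited RPM (reads scaled by library size) per sequence, length class and strand. The forward column was read as sense. The authors also deposited read counts per distinct sequence, of which 1 line had no count. Cutadapt is named in the submitters' processing notes, and its version is not given in the sources used here. Technical replicates were averaged. Differences were fitted with limma 3.58.1 (R 4.3.3) on log2(RPM + 1) over all sequences with a mean of at least 1 RPM in the fit, with Benjamini-Hochberg adjustment and a two-sided threshold of 0.05. LZ_T against LZ and against SG_T used the 4 samples concerned, and other comparisons used 1 fit of 9 samples. Such RPM with divided reads are no counts, so no count test was run. Shares were compared with exact permutation tests. Depth was 1810805 to 29956080 reads a sample.

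Reads of 19 to 33 nt were matched with up to 2 mismatches to a B1-like sequence of 132 nt, extended by majority from the part of mouse transcripts (GENCODE M21) that resembles 7SL RNA, and 101435 distinct sequences matched. Of the matched reads, 0.0524% were no further from 7SL RNA. Whole listed miRNAs were left out of the overlap shares. The limma fit was tested on simulated data, and the read matching and overlap counts were not. The sequences named in the text were the 3 members, the 3 B2 sequences and the 5 non-members with the highest correlation with B1, and the positions and reads shown were chosen after their values were seen. The members and lists were chosen with earlier results of these data known. Alternatives covered the pseudocount, the filter, 4 rescalings, single runs, left-out samples, a replicate block and 1 fit of all samples.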

Additional observations from a re-analysis of the deposited data

Results flagged for a closer look

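The change of 24–33 nt B1 reads from spermatogonia to leptotene/zygotene spermatocytes differed between the 2 sets by a test of the difference itself, an interaction term in the limma fit of all 9 samples. It was larger in the technical-replicate set by 3.63 (log2, SE 0.53) for B1_Mm, by 3.59 for B1_Mus1 and by 3.62 for B1_Mus2 (limma adjusted p = 0.00295), where 7.86% of the 140 sequences tested had a larger change in that set. Both LZ_T samples lay above both SG_T samples for each of the 3, as for 55.2% of the 58 sequences tested in that comparison. LZ differed from SG by −0.62 to −0.38 (log2), with 0 of the 3 called and 18.6% of sequences called higher. The difference was 0.58 to 0.63 (limma adjusted p = 0.24 to 0.29) per total of the listed retrotransposons and 1.32 to 1.36 (limma adjusted p = 0.13 to 0.14) per total of the LINE and LTR sequences, rescalings that were chosen after seeing the data. It was 2.66 to 2.70 per 21–23 nt reads and 3.98 to 4.03 per 24–33 nt reads. SG is 1 library, and the sets cannot be told apart from what else separates them.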

How the results depend on the processing

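In LZ_T against LZ, all 3 B1 sequences were called higher in 24–33 nt reads in each of the 16 alternatives, with log2 differences of 1.83 to 5.04 (limma adjusted p = 3.24e-11 to 0.00749). In LZ_T against SG_T the count of 3 became 0 per total of the listed retrotransposons (both strands together, sense and antisense) and 0 for sense reads per total of LINE and LTR sequences. The same total of listed sequences turned SG_T against SG from 3 lower to 0 lower and 3 higher, with log2 differences of 2.199, 2.145 and 2.11 for B1_Mm, B1_Mus1 and B1_Mus2, as did LINE and LTR sequences, with 3.67, 3.62 and 3.58. That count was also 0 per 24–33 nt reads and with the 100-bp runs alone. PD against LZ was 0 per 21–23 nt reads, with B1_Mus1 at 0.23, and 0 per LINE and LTR total. Per 21–23 nt reads LZ against SG was 0.18 for B1_Mus1 and 0.15 for B1_Mus2, none called. The RS to PD log2 ratio of −2.01 was −0.79 per listed total and −0.83 per LINE and LTR total. Each rescaling multiplied all sequences of a sample by the same factor. The shares of all sequences called are not given for these alternatives, nor for the left-out samples and the replicate block below. The counts therefore cannot be read as particular to B1. The cause of these changes was not tested.

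Leaving out 1 sample gave 0 to 3 calls in SG_T against SG (0 without SG_T replicate 2), 0 to 3 in PD against LZ (0 without either LZ_T replicate) and 0 to 3 in LZ_T against LZ at 11–18 nt (3 without LZ_T replicate 1). It gave 0 to 0 in LZ_T against SG_T at 11–18 nt and at 34–48 nt. Share differences near 0 changed sign: antisense at 19–23 nt, LZ_T minus SG_T, was 1.02 points with the 100-bp runs and −1.49 to 0.0577 over left-out samples. Antisense at 11–18 nt, LZ_T minus LZ, ran from −3.40 to 6.67 (−0.239 without LZ replicate 1). The 11–18 nt part, LZ_T minus SG_T, ran from −1.32 to 4.22 (−0.436 without SG_T replicate 1). The 34–48 nt part ran from −0.136 to 0.340 (−0.0144 without SG_T replicate 2).

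Samples of different groups share replicate numbers that no source calls a pairing. With the replicate number as a block, 3 of 3 were called in 24–33 nt reads in LZ_T against SG_T and against LZ, and 3 in place of 2 at 34–48 nt in LZ_T against SG_T. Correlations of same-numbered deviations were 0.109 over 58 sequences and −0.194 over 136. Keeping whole listed miRNA sequences, chosen after seeing the data, moved none of 18 overlap shares by 1 point. These sequences were only 0.169% of the matched reads. Shortened forms, such as the read at sense 60, stayed in both versions, so their part in the pairs was not tested. Depth limits RS and SG_T replicate 2 most, whose 34–48 nt values rest on 55.2 and 150.5 divided reads.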
